A study of Mus musculus with 8 samples.

Results

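The 10 genes Cd3d, Cd3e, Cd3g, Cd4, Cd8a, Itgae, Klrd1, Gzma, Gzmb and Nkg7 mark T cells and natural killer (NK) cells, and were taken by symbol from a table of 17353 genes measured in mouse colonic mucosa. All 10 were in the table, and all 10 were among the 13381 genes with enough counts to be tested. The study asked whether Kuiyangling, a herbal formula, lowers inflammation in a mouse model of ulcerative colitis, with mesalazine, an anti-inflammatory drug used in that disease, as its comparator. RNA came from 8 male wild-type C57BL/6J mice killed on day 7, with 2 animals in each of 4 groups. Kuiyangling mice drank 3% dextran sulfate sodium (DSS), which injures the colonic epithelium, and received Kuiyangling at 10 g/kg by enema. Mesalazine mice drank DSS in the same way and received mesalazine at 50 mg/kg by enema. DSS model mice drank DSS and received saline enemas. Control mice received saline enemas without DSS. Each enema had a volume of 0.2 ml, and the age of the animals was not given in the sources used here.

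T cells recognise antigen through a receptor whose signal is carried into the cell by the CD3 chains, and the coreceptors CD4 and CD8 divide them into cells that read MHC class II and cells that read MHC class I. Many T cells of the gut lie between the epithelial cells; they commonly carry a CD8 made of alpha chains alone and an integrin, with Itgae as its alpha chain, that binds the cadherin of epithelial cells. Cytotoxic T cells and NK cells kill target cells by releasing granules that hold perforin and granzymes, and NK cells lack the CD3 chains of the T cell receptor at their surface.

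Cd3g, Cd3d and Cd3e encode the gamma, delta and epsilon chains of CD3, and in the RefSeq annotation (GRCm38.p6) they lie next to each other in this order on chromosome 9. Promoter sequences of 300 bases, mostly before each gene's start, were found in RefSeq for 7 of the 10 genes, namely Cd3d, Cd3e, Cd3g, Cd8a, Gzma, Gzmb and Nkg7. The neighbouring CD3 genes and the granzyme genes are shown because both sets hold genes whose levels in these libraries differ although the genes lie close together or belong to the same family. They were searched on both strands for core letters bound by factors known from lymphocytes: AGGAAG (ETS factors), TGTGGT (RUNX factors), CTTTGA (TCF and LEF factors) and, for the core promoter, TATAAA. Capitals mark matches to these motifs, or to their reverse complements.
Cd3g, chr9:44980382-44980681, minus strand: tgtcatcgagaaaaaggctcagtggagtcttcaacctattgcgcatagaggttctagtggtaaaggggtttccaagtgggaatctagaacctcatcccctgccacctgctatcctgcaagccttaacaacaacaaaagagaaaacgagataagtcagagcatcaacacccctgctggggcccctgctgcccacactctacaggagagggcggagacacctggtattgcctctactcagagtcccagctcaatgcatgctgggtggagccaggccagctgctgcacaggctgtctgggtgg
Cd3d, chr9:44981536-44981835, plus strand: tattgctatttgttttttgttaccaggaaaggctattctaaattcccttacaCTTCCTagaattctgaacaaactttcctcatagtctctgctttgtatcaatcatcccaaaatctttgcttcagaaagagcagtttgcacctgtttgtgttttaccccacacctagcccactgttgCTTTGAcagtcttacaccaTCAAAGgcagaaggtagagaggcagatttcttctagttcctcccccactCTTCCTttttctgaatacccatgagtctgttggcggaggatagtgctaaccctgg
Cd3e, chr9:45009562-45009861, minus strand: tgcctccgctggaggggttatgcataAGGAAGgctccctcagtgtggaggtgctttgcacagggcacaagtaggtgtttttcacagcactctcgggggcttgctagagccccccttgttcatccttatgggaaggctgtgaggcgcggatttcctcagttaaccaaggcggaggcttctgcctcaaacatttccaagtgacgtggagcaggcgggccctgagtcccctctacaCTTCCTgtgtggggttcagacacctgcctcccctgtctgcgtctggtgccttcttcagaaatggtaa
Gzma, chr13:113100932-113101231, minus strand: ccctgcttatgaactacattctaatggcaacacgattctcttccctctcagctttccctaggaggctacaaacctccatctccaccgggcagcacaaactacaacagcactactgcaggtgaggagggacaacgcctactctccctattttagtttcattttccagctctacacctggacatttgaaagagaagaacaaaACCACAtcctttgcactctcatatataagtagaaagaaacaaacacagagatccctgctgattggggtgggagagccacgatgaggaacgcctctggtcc
Gzmb, chr14:56262285-56262584, minus strand: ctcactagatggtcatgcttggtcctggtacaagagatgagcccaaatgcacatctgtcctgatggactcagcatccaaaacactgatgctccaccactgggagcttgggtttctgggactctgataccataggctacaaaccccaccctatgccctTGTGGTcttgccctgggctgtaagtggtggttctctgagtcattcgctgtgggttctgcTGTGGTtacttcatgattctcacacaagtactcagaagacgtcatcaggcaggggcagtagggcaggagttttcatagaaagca
The Cd3d promoter held 2 ETS and 2 TCF matches and the Cd3e promoter 2 ETS matches, while the Cd3g promoter held none of the 4 motifs. Gzma had 1 RUNX match, Gzmb 2 RUNX matches and Nkg7, not printed, 1 ETS and 1 RUNX match; Cd8a, also not printed, had none. Of 32851 promoters of the same length in RefSeq, 35.4% held the ETS motif, 16.8% the RUNX motif, 16% the TCF motif and 13.6% TATAAA. These matches describe letters in the windows and no binding was measured.

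Totals ran from 15560946 to 17843715 counts per library, at which 3 counts equal 0.149 to 0.212 CPM (counts relative to library size, here always scaled by TMM). In bulk tissue, fewer cells of a type and less RNA per cell cannot be told apart. Before the results, 2 libraries need naming. Control replicate 2 summed to 101 CPM over 15 B cell markers, against 10.5 CPM in control replicate 1 and 8.07 to 12.3 CPM in the other libraries, and to 2273.5 CPM over 10 MHC class II genes, against 127 to 388 CPM elsewhere. Mesalazine replicate 1 summed to 872 CPM over 11 neutrophil markers, against 11.1 to 229.6 CPM elsewhere. As a mean of log2 CPM, with each tested marker centred and scaled to SD 1, its neutrophil level was 0.62. The DSS model libraries had higher means, at 0.74 and 1.26. Ribosomal protein genes made up 12.7% of the counts of mesalazine replicate 1, against 3.35% to 6.68% elsewhere. Medians of the 10 genes are given below with and without control replicate 2 in the comparisons with controls, and with and without mesalazine replicate 1 for mesalazine against the DSS model. The epithelial marker Epcam lay between 2098 and 2942 CPM in all 8 libraries.

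The T and NK cell genes were present at low levels in all 4 groups, and none of the 10 differed between groups by edgeR's quasi-likelihood test. After DSS, 9 of the 10 had a lower fitted level than in controls, but this order rested on control replicate 2. With Kuiyangling 9 of the 10 had a higher fitted level than in the DSS model, against 50.3% of all genes, but only 5 did without Kuiyangling replicate 1 and 6 without DSS model replicate 1. With mesalazine 8 of the 10 had a higher fitted level than in the DSS model, against 54.3% of all genes, and 8 or 9 did with any single library left out. Klrd1, which encodes the CD94 subunit of inhibitory and activating receptors on NK and some T cells, had its highest levels with mesalazine. Itgae, the alpha chain of the integrin by which T cells attach to epithelium, was higher with either treatment than in both DSS model libraries. These differences did not pass adjustment over all genes.

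Levels between genes were compared as FPKM, the authors' counts scaled for gene length and library total. Gzma, a granzyme, had the highest median over the 8 libraries at 12.6 FPKM, with a range of 4.69 to 25.9. Next came Cd3g with a median of 3.82 FPKM, Gzmb with 3.80 and Nkg7 with 3.04. These 3 neighbours covered overlapping ranges, from 1.60 FPKM for Nkg7 in a DSS model library to 17.8 FPKM for Gzmb in control replicate 2. Klrd1 followed at a median of 1.74 FPKM, Cd3d at 1.65 and Cd8a at 1.37, again with overlapping ranges. Cd3e had a median of 0.994 FPKM, Itgae 0.908 and Cd4, the lowest, 0.410, with a range of 0.228 to 0.735 FPKM for Cd4. Counts behind these values ran from 12 to 432 per gene and library. Cd3e in mesalazine replicate 1 rested on 12 counts, with an exact Poisson 95% interval of 6.2 to 21.0 that covers counting error only. Control replicate 2 held the highest level of 8 genes. The exceptions were Cd3d, highest in mesalazine replicate 1, and Klrd1, highest in mesalazine replicate 2 and lowest in control replicate 2.

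**Figure D1:**
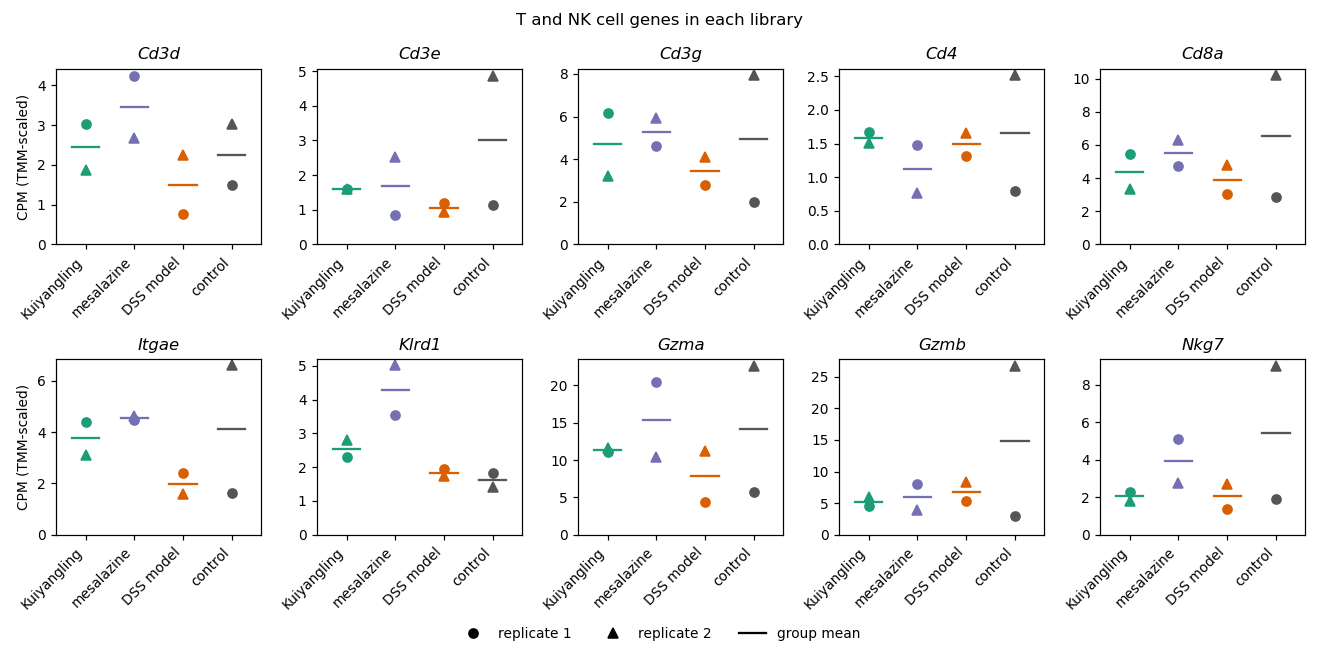
CPM of each of the 10 genes (vertical axis, TMM-scaled, starting at 0) in the 2 libraries of each group, with circles for replicate 1, triangles for replicate 2 and a bar at the group mean. Control replicate 2 is the highest point for 8 of the 10 genes, and Klrd1 is highest in the mesalazine libraries, at 3.54 and 5.02 CPM.

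The CD3 chains come first, since every T cell receptor needs them. Cd3d had 3.03 and 1.87 CPM in the Kuiyangling libraries, 4.25 and 2.69 CPM in the mesalazine libraries, 0.755 and 2.25 CPM in the DSS model libraries and 1.49 and 3.02 CPM in the control libraries. Both mesalazine values were above both DSS model values, while the Kuiyangling, DSS model and control values were interleaved. The fitted log2 change of Cd3d was 1.20 (SE 0.63) for mesalazine against the DSS model, with an adjusted p of 0.935 by edgeR's quasi-likelihood test with Benjamini-Hochberg adjustment over all genes. For Kuiyangling against the DSS model it was 0.70 (SE 0.63, adjusted p = 0.996) and for the DSS model against controls -0.58 (SE 0.63, adjusted p = 0.661). The low DSS model value of Cd3d came from replicate 1, at 12 counts, and without that library its log2 change with mesalazine was 0.61.

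Cd3e had 1.61 CPM in both Kuiyangling libraries, 0.849 and 2.51 CPM in the mesalazine libraries, 1.20 and 0.928 CPM in the DSS model libraries and 1.14 and 4.87 CPM in the control libraries. Its Kuiyangling values lay above both DSS model values, whereas the mesalazine values fell on either side of them and the controls differed from each other 4.27-fold. Log2 changes were 0.60 (SE 0.75, adjusted p = 0.996) with Kuiyangling and 0.67 (SE 0.75, adjusted p = 1) with mesalazine, each against the DSS model, and -1.48 (SE 0.74, adjusted p = 0.372) in the DSS model against controls. The last is the most negative of the 10 genes in that comparison.

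Cd3g had 6.19 and 3.22 CPM in the Kuiyangling libraries, 4.6 and 5.95 CPM in the mesalazine libraries, 2.77 and 4.11 CPM in the DSS model libraries and 1.98 and 7.95 CPM in the control libraries. The control values enclosed all 6 others, and the mesalazine values lay above both DSS model values in CPM. In FPKM Cd3g overlapped, at 3.75 in mesalazine replicate 1 and 3.89 in DSS model replicate 2. Its log2 change was 0.45 (SE 0.61) with Kuiyangling and 0.62 (SE 0.61) with mesalazine against the DSS model, and -0.52 (SE 0.61) in the DSS model against controls. With all 8 libraries the 3 chains thus had positive log2 changes with both treatments and negative ones after DSS. None of these 9 values passed the test, and some signs reversed with 1 library left out. After DSS, Cd3g was at 0.79 and Cd3d at 0.013 without control replicate 2. With Kuiyangling, Cd3g was at -0.13 without Kuiyangling replicate 1. With mesalazine, Cd3e was at -0.32 without mesalazine replicate 2.

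Of the coreceptors, Cd8a marks cytotoxic T cells and many intraepithelial lymphocytes. It had 5.45 and 3.32 CPM in the Kuiyangling libraries, 4.74 and 6.30 CPM in the mesalazine libraries, 3.02 and 4.77 CPM in the DSS model libraries and 2.87 and 10.2 CPM in the control libraries. All groups overlapped. Log2 changes of Cd8a were 0.17 (SE 0.58) with Kuiyangling and 0.51 (SE 0.58) with mesalazine against the DSS model, and -0.74 (SE 0.57, adjusted p = 0.526) in the DSS model against controls.

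Cd4, the coreceptor of helper T cells and also found on some mononuclear phagocytes, had 1.67 and 1.51 CPM in the Kuiyangling libraries, 1.49 and 0.759 CPM in the mesalazine libraries, 1.32 and 1.66 CPM in the DSS model libraries and 0.793 and 2.53 CPM in the control libraries. Kuiyangling and DSS model values were nearly the same, and the lowest value was that of mesalazine replicate 2, at 13 counts. Cd4 was 1 of only 2 genes with a negative log2 change for mesalazine against the DSS model, at -0.42 (SE 0.65), and its other changes were small, at 0.09 (SE 0.64) with Kuiyangling against the DSS model and -0.14 (SE 0.64) in the DSS model against controls. Cd8a counts per 100 Cd4 counts were 325.9 and 220.7 in the Kuiyangling libraries, 319 and 830.8 in the mesalazine libraries, 228.6 and 288 in the DSS model libraries and 362.5 and 404.9 in the control libraries. Apart from mesalazine replicate 2, where Cd4 rested on 13 counts, the ratio stayed between the 220.7 and 404.9 of these libraries.

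Cd8b1, the beta chain that makes conventional CD8 with Cd8a, had 3 and 22 counts in the Kuiyangling libraries, 16 and 9 counts in the mesalazine libraries, 0 and 5 counts in the DSS model libraries and 2 and 51 counts in the control libraries. Per 100 Cd8a counts this was 3.41 and 34.4 with Kuiyangling, 23.9 and 8.33 with mesalazine, 0 and 6.94 in the DSS model and 3.45 and 30.7 in controls. Within each of the Kuiyangling and control groups the libraries differed about as widely as any across groups, so that no order of the groups could be read from it.

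Itgae had 4.39 and 3.12 CPM in the Kuiyangling libraries, 4.46 and 4.61 CPM in the mesalazine libraries, 2.39 and 1.59 CPM in the DSS model libraries and 1.64 and 6.6 CPM in the control libraries. All 4 treated libraries lay above both DSS model libraries, and the 2 mesalazine values were closer to each other than those of any other group. The log2 change of Itgae was 0.91 (SE 0.61, adjusted p = 0.996) with Kuiyangling and 1.18 (SE 0.61, adjusted p = 0.934) with mesalazine against the DSS model, by edgeR's quasi-likelihood test with Benjamini-Hochberg adjustment. These are the largest and the third largest of the 10 genes in their comparisons. Both comparisons use the same DSS model libraries, whose low values enter each change. In the DSS model against controls the change was -1.03 (SE 0.61, adjusted p = 0.423), but control replicate 1, at 1.64 CPM, was as low as DSS model replicate 2.

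Klrd1, a receptor gene of NK and some T cells, had 2.29 and 2.80 CPM in the Kuiyangling libraries and 3.54 and 5.02 CPM in the mesalazine libraries. It had 1.95 and 1.72 CPM in the DSS model libraries and 1.83 and 1.42 CPM in the control libraries. The groups stood in the order mesalazine, Kuiyangling and then DSS model and control together, with no overlap in CPM between the first, the second and the rest. In FPKM the treatments were not separate, since mesalazine replicate 1, at 2.35 FPKM, lay below Kuiyangling replicate 2, at 2.44 FPKM. Klrd1 was also the only gene of the 10 that was lower in control replicate 2 than in control replicate 1, at 0.774-fold. Its log2 change was 1.22 (SE 0.45) for mesalazine against the DSS model, with an unadjusted p of 0.0210 and an adjusted p of 0.739, and 1.39 (SE 0.45) for mesalazine against controls, with an unadjusted p of 0.0109 and an adjusted p of 0.141, by edgeR's quasi-likelihood test. With Kuiyangling it was 0.47 (SE 0.45, adjusted p = 0.996) against the DSS model and 0.64 (SE 0.45, adjusted p = 0.723) against controls. A test of any difference among the 4 groups gave an unadjusted p of 0.0359 and an adjusted p of 0.360 for Klrd1, and adjusted p-values of 0.586 to 0.945 for the other 9 genes.

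The Klrd1 change with mesalazine did not rest on 1 library. Over 19 alternative settings and left-out libraries it lay between 0.80 and 1.45, with adjusted p-values from 0.214 to 1, and without mesalazine replicate 1, the library with high neutrophil and ribosomal protein counts, it was 1.44. Ncr1, which encodes the receptor NKp46 of NK cells, had 0 to 3 counts in every library, including 0 in both mesalazine libraries. Prf1, the pore-forming protein of cytotoxic granules, had 0 to 3 counts in 7 libraries and 19 in control replicate 2. At this depth neither gene could show a difference between treated and DSS model mice.

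Gzma and Gzmb encode granule proteases that enter target cells. Gzma had 11.1 and 11.7 CPM in the Kuiyangling libraries, 20.5 and 10.4 CPM in the mesalazine libraries, 4.40 and 11.3 CPM in the DSS model libraries and 5.70 and 22.6 CPM in the control libraries. The Kuiyangling libraries were alike and the DSS model and control libraries were not, so that each treatment overlapped the DSS model. The log2 changes of Gzma were 0.54 (SE 0.63) with Kuiyangling and 0.98 (SE 0.63, adjusted p = 0.980) with mesalazine against the DSS model, and -0.85 (SE 0.63, adjusted p = 0.510) in the DSS model against controls. Without mesalazine replicate 1 the change with mesalazine was 0.40.

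Gzmb had 4.58 and 5.92 CPM in the Kuiyangling libraries, 8.0 and 3.91 CPM in the mesalazine libraries, 5.35 and 8.29 CPM in the DSS model libraries and 2.97 and 26.6 CPM in the control libraries. The 8.96-fold gap between the control libraries was the widest within any group for any of the 10 genes, and the other 6 values lay inside it. Unlike Gzma, Gzmb had negative log2 changes with both treatments against the DSS model, at -0.37 (SE 0.78) with Kuiyangling and -0.20 (SE 0.78) with mesalazine. In the DSS model against controls it was -1.11 (SE 0.77, adjusted p = 0.483), and 1.20 without control replicate 2. Gzmb counts per 100 Gzma counts were 41.1 and 50.7 in the Kuiyangling libraries, 39.1 and 37.6 in the mesalazine libraries, 121.4 and 73.5 in the DSS model libraries and 52.2 and 117.7 in the control libraries. All 4 treated libraries had a lower ratio than both DSS model libraries, and the control libraries lay on either side. This ratio was singled out after its values were seen and was not tested.

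Nkg7, a granule membrane protein of NK cells and cytotoxic T cells, had 2.29 and 1.82 CPM in the Kuiyangling libraries, 5.10 and 2.74 CPM in the mesalazine libraries, 1.38 and 2.72 CPM in the DSS model libraries and 1.88 and 9.0 CPM in the control libraries. Kuiyangling values fell between the DSS model values, and mesalazine values lay above them, that of replicate 2 only just. The log2 change of Nkg7 was 0.00 (SE 0.71) with Kuiyangling and 0.93 (SE 0.70, adjusted p = 1) with mesalazine against the DSS model. In the DSS model against controls it was -1.40 (SE 0.70), and its adjusted p of 0.371 was the lowest of the 10 genes there.

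Counts of the comparisons put these values together. Between the DSS model and controls, 0 of the 10 genes were called at an adjusted p under 0.05, against 33 of 13381 genes, or 0.247%, over the whole table. None of the 10 had an unadjusted p under 0.05 in edgeR's test, against 14.8% of all genes, or in limma on log2(FPKM + 1), and 1 did in DESeq2, which called none. Without control replicate 1, so that control replicate 2 stood alone, 7 of the 10 had an unadjusted p under 0.05, against 15% of all genes. The median log2 change of the 10 genes was -0.80, against -0.04 over all genes tested. It was -0.38 without DSS model replicate 1, -1.47 without control replicate 1 and 0.36 without control replicate 2. None of the 10 was without overlap between the groups, while 27.1% of all genes were higher and 26.3% lower in the DSS model without overlap.

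For Kuiyangling against the DSS model, 0 of the 10 genes and 0 of all genes, 0%, were called by edgeR's test, none of the 10 had an unadjusted p under 0.05, against 3.56% of all genes, and DESeq2 and limma likewise gave no call and no unadjusted p under 0.05 among them. Their median log2 change was 0.46, against 0.00 over all genes. Cd3e, Itgae and Klrd1 were higher in Kuiyangling without overlap, 3 of 10 against 21.9% of all genes, and none was lower, against 21.1%. This count was 5 with total counts in place of TMM, against 32.1% of all genes, and 7 after correction for gene length, against 18.2%. It was 9 without DSS model replicate 2 and 7 without Kuiyangling replicate 2, where 1 library against 2 also separated more of all genes, 39.1% and 32%. Without DSS model replicate 1 it was 3, against 38.3% of all genes, and without Kuiyangling replicate 1 it was 4, against 36.4%. The median of 0.46 was 0.07 without DSS model replicate 1 and 0.13 without Kuiyangling replicate 1.

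For mesalazine against the DSS model, edgeR's test again called 0 of the 10 and 0%, and Klrd1 alone had an unadjusted p under 0.05, against 5.49% of all genes, as 1 member did in DESeq2 and 2 in limma. Without the low-count filter 4 of the 10 did, against 6.14% of all genes. The median log2 change was 0.80, against 0.04 over all genes, 0.48 without DSS model replicate 1 and 0.73 without mesalazine replicate 1. Without that library the log2 changes were 0.82 for Cd3d, 1.22 for Cd3e, 0.78 for Cd3g, 0.68 for Cd8a, 1.20 for Itgae and 0.41 for Nkg7, and -0.98 for Cd4 and -0.81 for Gzmb. Cd3d, Cd3g, Itgae, Klrd1 and Nkg7 were higher with mesalazine without overlap, 5 of 10 against 14% of all genes, and none was lower, against 13.8%. The number of genes higher was 4 with total counts in place of TMM and 4 in FPKM, each against 12.2% of all genes. After correction for gene length it was 6, against 16.7%. Without mesalazine replicate 1 this count was 7, against 36.3% of all genes, and without mesalazine replicate 2 it was 6, against 40.2%. Without DSS model replicate 1 it was 5, against 23%, and without DSS model replicate 2 it was 7, against 29.9%. The 2 treatments share the DSS model libraries, whose values enter both sets of changes.

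**Figure D2:**
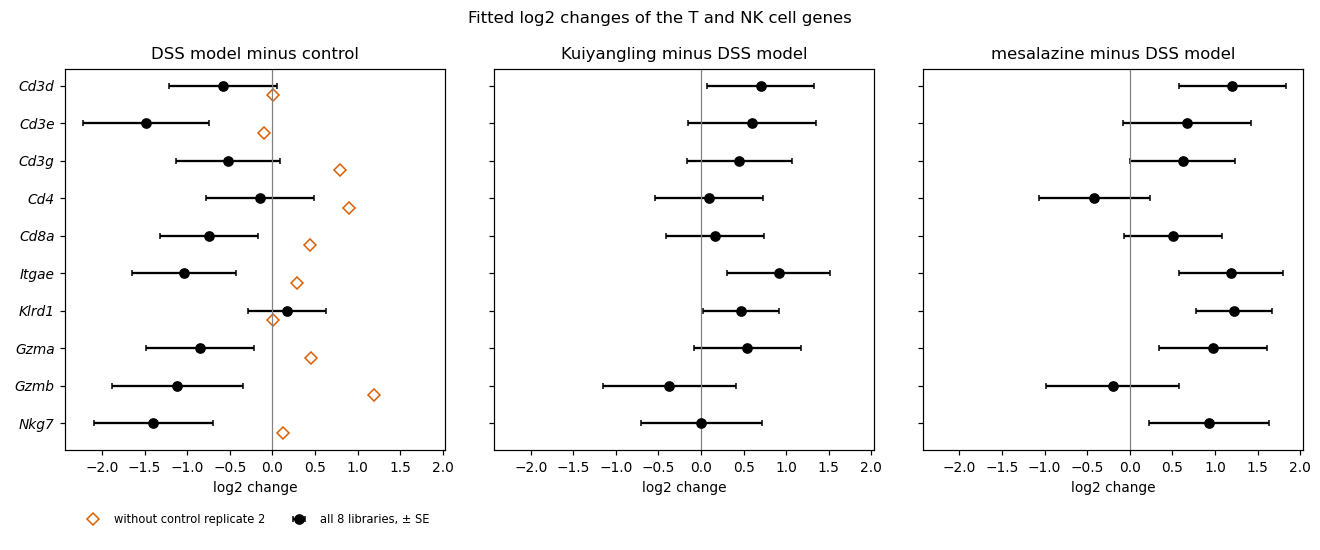
Fitted log2 changes (horizontal axis) of the 10 genes in 3 comparisons, with filled points and bars for the estimate ± SE from all 8 libraries, and open diamonds in the left panel for the DSS model minus control without control replicate 2. With all libraries 9 of the 10 estimates in the left panel are below 0; without control replicate 2, 9 of the 10 are above 0.

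The other comparisons gave no call either. Between Kuiyangling and mesalazine the median log2 change of the 10 genes was -0.31, with 1 above 0 and 9 below, while 50.2% of all genes were above 0. After correction for gene length 5 were above 0 and 5 below, with 46.3% of all genes above 0. In this comparison 0 of 10 and 0% of all genes were called, and no member had an unadjusted p under 0.05 in any of the 3 tools. Klrd1 was the gene with the smallest unadjusted p there, 0.117, at a log2 change of -0.75 (SE 0.44), with both Kuiyangling values below both mesalazine values. Between Kuiyangling and controls 0 of 10 were called, against 0.239% of all genes, with a median of -0.22 and none under an unadjusted 0.05 in edgeR, against 10.3% of all genes, none in limma and 2 in DESeq2. Without control replicate 1, 4 of the 10 were, against 13.5% of all genes. Between mesalazine and controls 0 of 10 were called, against 0.673%, with a median of -0.07; Klrd1 alone passed an unadjusted 0.05 in edgeR, against 20% of all genes, and DESeq2 and limma each had 1 such member. Without control replicate 2, 4 of the 10 did, against 9.65% of all genes. Over the test of any difference among the 4 groups 0 of 10 were called, against 0.202% of all genes, with 1 gene under an unadjusted 0.05 in each of edgeR, DESeq2 and limma.

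In all 3 comparisons with controls the sign of the genes' median turned when control replicate 2 was left out. This library was above control replicate 1 for 9 of the 10 genes, by 2.03-fold for Cd3d to 8.96-fold for Gzmb. The median absolute log2 difference between the 2 control libraries was 1.94 for the 10 genes and 0.358 for all genes. In the other groups the median absolute difference between replicates was 0.338 (Kuiyangling), 0.752 (mesalazine) and 0.587 (DSS model) for the 10 genes, against 0.235, 0.562 and 0.307 for all genes. Without control replicate 2, 9 of the 10 log2 changes in the DSS model against controls were above 0, 8 genes changed sign, and the lowest adjusted p was 0.622. Likewise all 10 genes were then above controls with Kuiyangling, at a median of 0.77, and with mesalazine, at a median of 1.13. Beside the B cell and MHC class II genes of control replicate 2 stood Hoxb13, a gene of the distal colon, at 175 CPM against 19.9 CPM in control replicate 1 and 0.212 to 23.2 CPM elsewhere. The part of these in the T and NK cell levels was not tested.

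The summed level of the 10 genes was 42.6 and 36.9 CPM in the Kuiyangling libraries, 57.5 and 44.9 CPM in the mesalazine libraries, 24.5 and 39.3 CPM in the DSS model libraries and 22.3 and 94.9 CPM in the control libraries. The mesalazine libraries lay above both DSS model libraries, and the Kuiyangling libraries on either side of DSS model replicate 2. Neutrophil markers summed to 211 and 137 CPM with Kuiyangling, 872 and 124 CPM with mesalazine, 168 and 229.6 CPM in the DSS model and 11.1 and 138 CPM in controls. Of the 11 neutrophil markers, 5 and 6 were at 0 in the control libraries and 0 or 1 in the others. Smooth muscle markers summed to 78.7 and 76.1 CPM with Kuiyangling, 62.9 and 24.3 CPM with mesalazine, 24.8 and 48.7 CPM in the DSS model and 116 and 45.3 CPM in controls. Endothelial markers summed to 29.1 and 21.1 CPM with Kuiyangling, 27.3 and 9.05 CPM with mesalazine, 8.93 and 17.2 CPM in the DSS model and 8.03 and 8.32 CPM in controls. Both lists were thus higher in both Kuiyangling libraries than in the DSS model libraries, with all 9 tested genes of each list above 0 and none called. B cell markers summed to 9.72 and 8.98 CPM with Kuiyangling and 8.07 and 10.5 CPM with mesalazine. In the DSS model they summed to 10.6 and 12.3 CPM, above all 4 treated libraries, though mesalazine replicate 2 was only just below. This order was not kept in the mean of log2 CPM with each tested marker centred and scaled to SD 1. That mean was -0.25 and -0.295 with Kuiyangling, -0.55 and -0.15 with mesalazine and -0.37 and 0.08 in the DSS model. The part of these cell types in the levels of the T and NK cell genes was not tested.

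**Figure D3:**
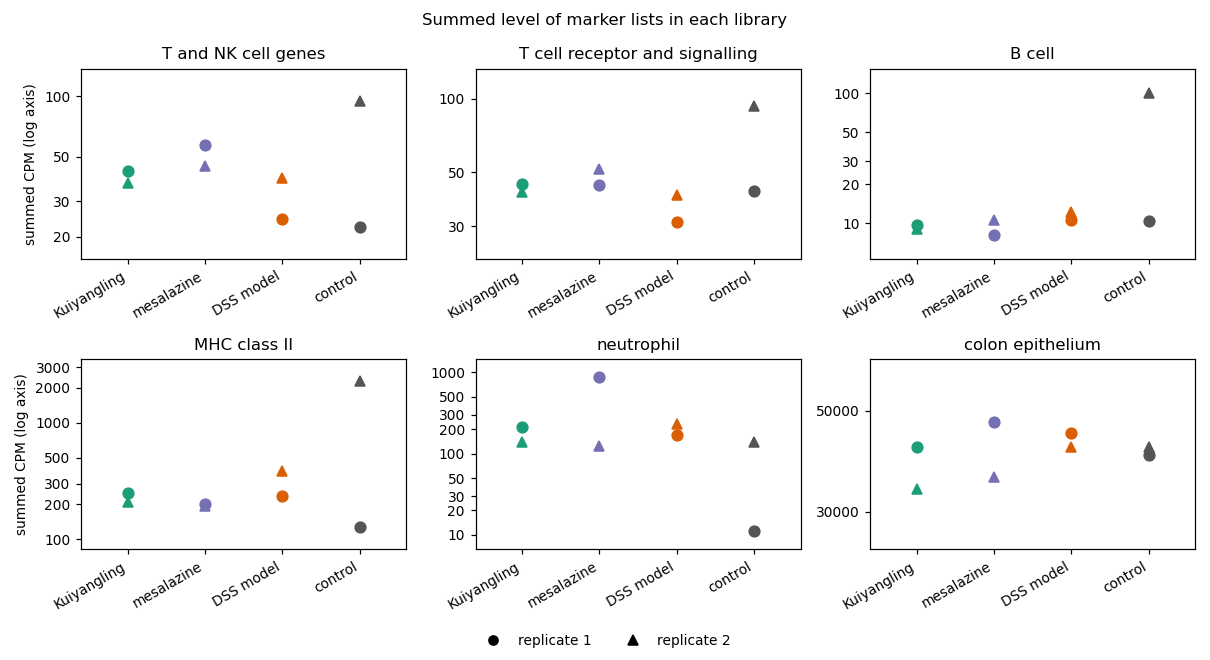
Summed CPM (vertical log axes) of the 10 T and NK cell genes and of 5 marker lists in each library, by group, with circles for replicate 1 and triangles for replicate 2. Control replicate 2 stands apart in the T and NK cell, T cell receptor, B cell and MHC class II panels, at 94.9, 93.4, 101 and 2273.5 CPM, and mesalazine replicate 1 in the neutrophil panel, at 872 CPM.

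Expressed against the CD3 genes of the same library, the coreceptor Cd8a varied least. Cd8a had 50.3 and 49.6 counts per 100 counts of Cd3d, Cd3e and Cd3g in the Kuiyangling libraries, 48.9 and 56.5 in the mesalazine libraries, 64 and 65.5 in the DSS model libraries and 62.4 and 64.6 in the control libraries. All 4 treated libraries were lower than the DSS model and control libraries, a difference singled out after its values were seen and not tested, in numbers of 48 to 166 Cd8a counts per library. The 3.56-fold gap in Cd8a level between the control libraries did not appear in this ratio. Cd4 had 15.4 and 22.5 counts per 100 CD3 counts with Kuiyangling, 15.3 and 6.81 with mesalazine, 28 and 22.7 in the DSS model and 17.2 and 16 in controls. Here too every treated library was below both DSS model libraries, though Kuiyangling replicate 2 only just.

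Itgae had 40.6 and 46.5 counts per 100 CD3 counts with Kuiyangling, 46.0 and 41.4 with mesalazine, 50.7 and 21.8 in the DSS model and 35.5 and 41.6 in controls. Set against CD3, the treated libraries thus lay between the DSS model libraries, unlike their CPM, which were above them. Klrd1 had 21.1 and 41.9 with Kuiyangling, 36.5 and 45 with mesalazine, 41.3 and 23.6 in the DSS model and 39.8 and 8.95 in controls, so that its order by group in CPM was likewise not kept. Gzma ranged from 93.2 in mesalazine replicate 2 to 210.9 in mesalazine replicate 1, which covered the range of the whole series. Gzmb had 42.3 and 88.4 with Kuiyangling, 82.5 and 35.1 with mesalazine, 113.3 and 113.6 in the DSS model and 64.5 and 168.1 in controls. Both DSS model libraries were above all 4 treated ones and between the control libraries. Nkg7 had 21.1 and 27.1 with Kuiyangling, 52.6 and 24.6 with mesalazine, 29.3 and 37.3 in the DSS model and 40.9 and 56.8 in controls, and both Kuiyangling values were below all others except mesalazine replicate 2.

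**Figure D4:**
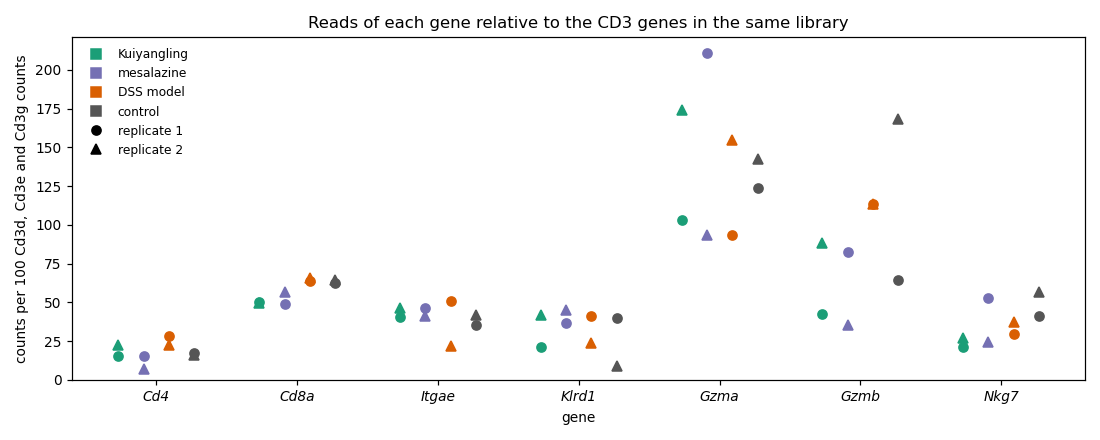
Counts of 7 genes per 100 counts of Cd3d, Cd3e and Cd3g together (vertical axis) in each library, coloured by group, with circles for replicate 1 and triangles for replicate 2. Cd8a stays between 48.9 and 65.5 in all 8 libraries, while Gzmb runs from 35.1 to 168.1.

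Over the 8 libraries, 40 of the 45 pairs of genes had a positive Pearson r of log2 CPM, with a median of 0.604. The closest pair was Cd3g and Cd8a, at 0.945, and the most opposed was Cd4 and Klrd1, at -0.541. The 5 negative pairs all held Klrd1, with Cd4, Gzmb (-0.44), Nkg7 (-0.107), Cd3e (-0.1) and Cd8a (-0.022). Without control replicate 2, the library where Klrd1 was lowest and most others highest, Klrd1 had r of -0.342 with Cd4, -0.039 with Gzmb, 0.505 with Nkg7, 0.579 with Cd3e and 0.593 with Cd8a. These are descriptions over 8 libraries that share depth, groups and the high values of control replicate 2; without that library the median r was 0.505 and 39 pairs were positive. Among 12092 genes outside the lists with a mean of at least 1 CPM, the 5 most like the mean pattern of the 10 genes were Sash3 (r = 0.964), Sh2d2a (0.959), Fbxo25 (0.959), Creb3l3 (0.953) and Hvcn1 (0.949). Sash3, an adaptor protein of lymphocytes, had 2.04 and 1.82 CPM with Kuiyangling, 3.19 and 2.45 CPM with mesalazine, 1.32 and 1.86 CPM in the DSS model and 1.19 and 7.09 CPM in controls. Sash3 and Sh2d2a, a T cell adaptor, were thus highest in control replicate 2, as was Creb3l3, a transcription factor of liver and intestine, at 66.6 CPM against 7.30 to 24.3 CPM elsewhere. Without control replicate 2 their r were 0.964 for Sash3, 0.917 for Sh2d2a, 0.924 for Fbxo25, 0.904 for Creb3l3 and 0.963 for Hvcn1. Their ranks among the candidate genes were then 11 for Sash3, 62 for Sh2d2a, 50 for Fbxo25, 89 for Creb3l3 and 12 for Hvcn1, so that none was among the 5 most like without that library.

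**Figure D5:**
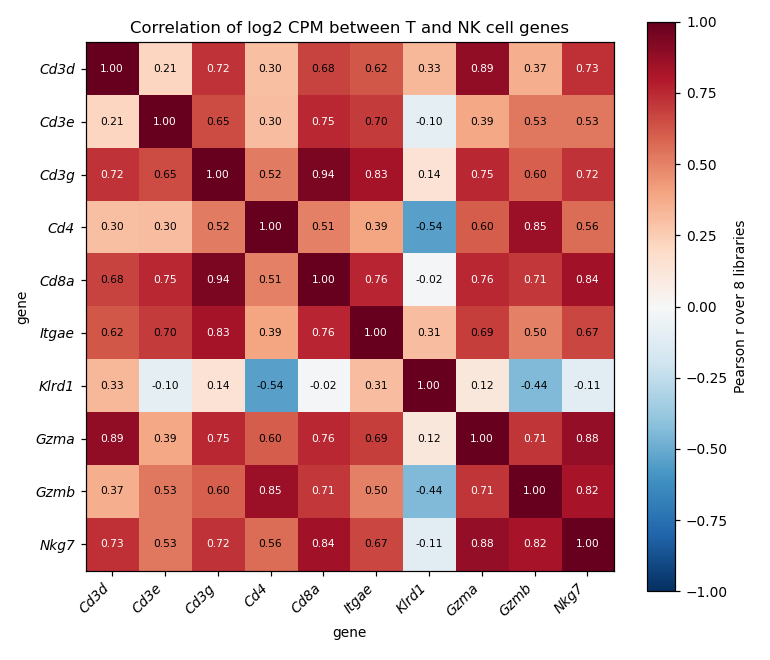
Pearson r of log2 CPM over the 8 libraries for each pair of the 10 genes, on a colour scale from -1 to 1. Klrd1 stands apart with r of -0.541 with Cd4 and -0.44 with Gzmb, while Cd3g and Cd8a reach 0.945.

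Other genes of T and NK cells were read from lists chosen by function. The receptor and signalling list had 20 of 27 genes in the table and 14 tested. Of these 0 were called by edgeR's test in any comparison, beside 0% to 0.673% of all genes. In the DSS model against controls 1 was above 0 and 13 below, at a median of -1.07, while 47.5% of all genes were above 0. This too rested on control replicate 2, without which 7 were above 0 and 7 below, at a median of -0.03. Against the DSS model 12 were above 0 with Kuiyangling and 13 with mesalazine, with medians of 0.41 and 0.58. The first count was 7 without Kuiyangling replicate 1, at a median of 0.04, and 9 without DSS model replicate 1, at a median of 0.11. Lck, the kinase that starts receptor signalling, had 5.82 and 5.14 CPM with Kuiyangling, 9.48 and 5.55 CPM with mesalazine, 4.28 and 7.96 CPM in the DSS model and 7.09 and 13.2 CPM in controls. Its value in mesalazine replicate 1 lay above both DSS model values, and those of the other treated libraries lay between them. Fyb, an adaptor of T cells and myeloid cells, had the smallest p of the list, at a log2 change of -1.85 for Kuiyangling against controls with an adjusted p of 0.193. The constant regions of the T cell receptor on this list were not analysed here.

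The list of intraepithelial lymphocyte and residence genes had 23 of 24 genes tested, with 0 called, and 2 above and 21 below 0 in the DSS model against controls at a median of -0.56. Without control replicate 2, 14 were above 0 and 9 below, at a median of 0.14. Against the DSS model 17 were above 0 with Kuiyangling and 16 with mesalazine, at medians of 0.33 and 0.27, beside the 50.3% and 54.3% of all genes. With mesalazine the median was 0.57 without mesalazine replicate 1 and -0.23 without mesalazine replicate 2. Btnl4, a butyrophilin-like gene of the family by which gut epithelium supports intraepithelial T cells, had 60.7 and 90.3 CPM with Kuiyangling, 26.2 and 76.6 CPM with mesalazine, 46.0 and 44.1 CPM in the DSS model and 102.7 and 146.9 CPM in controls. Both DSS model values of Btnl4 were below both control values, and its log2 change of -1.47 in that comparison had an adjusted p of 0.208 by edgeR's test. It was called without mesalazine replicate 1, at an adjusted p of 0.0495, and without mesalazine replicate 2, at 0.0473, libraries outside that comparison. Cd160, a receptor of intraepithelial lymphocytes and NK cells, had 2.54 and 1.66 CPM with Kuiyangling, 1.98 and 3.33 CPM with mesalazine, 1.13 and 1.53 CPM in the DSS model and 1.19 and 2.71 CPM in controls. As with Itgae, all 4 treated libraries were above both DSS model libraries.

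The helper and regulatory list had 13 of 23 genes in the table tested and 0 called, with medians of -0.33 for Kuiyangling and -0.40 for mesalazine against the DSS model and 0.12 for the DSS model against controls, or 0.79 without control replicate 2 and -0.04 without DSS model replicate 2. Its smallest p belonged to Gata3, the factor of type 2 helper T cells that is also found in other lymphoid cells and some epithelia. Gata3 had 1.05 and 1.04 CPM with Kuiyangling, 0.283 and 0.467 CPM with mesalazine, 3.71 and 2.52 CPM in the DSS model and 0.297 and 0.308 CPM in controls, with a log2 change of 3.33 in the DSS model against controls and an adjusted p of 0.0603, or 0.0443 and 0.0433 without mesalazine replicate 1 and replicate 2. Gata3 was thus higher in both DSS model libraries than in all others. With all 8 libraries the CD3 genes had negative log2 changes in the DSS model against controls. Without control replicate 2 that of Cd3g was 0.79 and that of Cd3d 0.013, while that of Cd3e was below 0 in every alternative. Foxp3, the factor of regulatory T cells, had 6 to 17 counts in all 8 libraries. Ifng, the type 1 cytokine of T and NK cells, had 51 counts in DSS model replicate 2, 18 in control replicate 2 and 4 or fewer elsewhere, and Il17a had at most 4 counts in any library.

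The cytotoxic effector list had 11 of 15 genes in the table tested and 0 called, with medians of -0.03 for Kuiyangling and 0.18 for mesalazine against the DSS model and -0.20 for the DSS model against controls, or 0.79 without control replicate 2. The medians with treatment changed sign with single libraries left out, from -0.54 to 0.15 with Kuiyangling and from -0.14 to 0.55 with mesalazine. Ccl5, a chemokine of memory T cells and NK cells, had 6.00 and 6.54 CPM with Kuiyangling, 8.14 and 6.71 CPM with mesalazine, 3.27 and 5.84 CPM in the DSS model and 2.63 and 20.8 CPM in controls. Its treated libraries were all above the DSS model libraries, and control replicate 2 was again the highest. Ccl4, a chemokine also made by macrophages, had the smallest p of the list, with 0.805 and 0.312 CPM with Kuiyangling, 0.708 and 1.05 CPM with mesalazine, 4.21 and 2.45 CPM in the DSS model and 0.347 and 2.22 CPM in controls. Its log2 change was -2.58 for Kuiyangling against the DSS model, with an adjusted p of 0.996.

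The NK cell and innate lymphoid list had 10 of 20 genes in the table tested and 0 called, with medians of 0.15 for Kuiyangling and 0.40 for mesalazine against the DSS model and -0.30 for the DSS model against controls, or 0.41 without control replicate 2. Without DSS model replicate 1 the medians with treatment were -0.38 for Kuiyangling and -0.02 for mesalazine. Areg, a growth factor made by innate lymphoid cells, regulatory T cells and epithelium, had 66.6 and 45 CPM with Kuiyangling, 24.0 and 34.7 CPM with mesalazine, 58.8 and 128.2 CPM in the DSS model and 29.9 and 38.1 CPM in controls. Both mesalazine values of Areg were below both DSS model values, at a log2 change of -1.67 with an adjusted p of 0.503. The list of naive and lymphoid tissue T cell genes had 11 of 13 tested and 0 called, with medians of -0.21 and -0.06 with Kuiyangling and mesalazine against the DSS model and -0.37 for the DSS model against controls, or 1.53 without control replicate 2. Without DSS model replicate 2 the medians with treatment were 0.12 and 0.17. Ccr7, the receptor that guides naive T cells into lymphoid tissue, had 7 and 4 counts with Kuiyangling, 10 and 1 with mesalazine, 13 and 15 in the DSS model and 0 and 18 in controls.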

How the data were processed

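RNA of colonic mucosa was sequenced in 8 libraries, 1 per animal and 2 per group. The deposited files hold whole-number counts per gene and FPKM, which are the authors' counts divided by gene length and by library totals. The tools named are HISAT2 and Trimmomatic, per the submitters' processing notes. Their versions, the read counter, strand setting and build are not given in the sources used here. Libraries were made with a stranded mRNA kit from RNA with an integrity number of at least 7, per the labels' protocols.

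In R 4.3.3, edgeR 4.0.16 was run on the 13381 genes kept by filterByExpr, with TMM scaling and 1 fit over the 8 libraries in which each group had its own mean. The quasi-likelihood test was adjusted by Benjamini-Hochberg over all genes, with calls at an adjusted p under 0.05. SE is the absolute log2 change divided by the root of the F value. The common biological coefficient of variation was 0.287, with 4 residual and 6.02 prior degrees of freedom. A prior count of 2 entered log2 CPM. Relative to the mean over the libraries, log2 CPM went with gene length to unlike degrees. Spearman r ran from -0.534 in mesalazine replicate 1 to 0.444 in control replicate 1. An exact permutation test of 2 against 2 animals cannot give a p below 0.333. Alternatives were DESeq2 1.42.0, limma 3.58.1 on log2(FPKM + 1) and log2(FPKM + 0.1), other scaling and filters, a correction for gene length (loess, span 0.5), a replicate block and left-out libraries. Of the methods, only edgeR's test and limma on log2 CPM were run on simulated counts, which held no deviating library. Groups were said to overlap where their CPM ranges did. A mesalazine column spelled unlike its label was taken as replicate 2 by its number.

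The 10 genes and all lists were chosen with earlier results of these data known. Named were all 10 genes, per other list the called genes or else the gene with the smallest p, a fixed panel, and the 5 genes most like the 10. Some of these genes are left out for space, and 1 is not reported here. Markers of plasma cells, follicles, macrophages, dendritic cells and mast cells are given in the closing section.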

Additional observations from a re-analysis of the deposited data

How the results depend on the processing

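None of the 10 genes was called in any comparison under any of 19 alternatives each (18 for any difference among groups); the lowest adjusted p of any of them was 0.0525, for mesalazine against controls without control replicate 1. The log2 changes of the 10 genes were repeated for the DSS model against controls and for each treatment against the DSS model. Of these 570 values, 535 kept their sign and 35 reversed. The treatments against controls are not among them. There, without control replicate 2, 8 genes changed sign with Kuiyangling and 5 with mesalazine. The cause of these changes was not tested. Same-numbered libraries did not deviate together (r between -0.311 and 0.162), and the labels tie no numbers together. With the replicate block 50 genes of the whole table were called for the DSS model against controls, 65 for Kuiyangling against controls and 71 for any difference, against 33, 32 and 27 without it, and 53 for Kuiyangling against controls with block and length correction. The block called none of the 10 genes.

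Counts of genes called over the whole table moved as follows. Without the low-count filter they were 487 (DSS model against control), 11 (Kuiyangling against DSS model), 104 (mesalazine against DSS model), 3 (Kuiyangling against mesalazine), 451 (Kuiyangling against control), 1090 (mesalazine against control) and 866 (any difference). DESeq2 gave 463, 13, 84, 0, 362, 1008 and 765 in the same comparisons. For limma on log2(FPKM + 1) they were 19 (DSS model against control), 7 (Kuiyangling against control), 11 (mesalazine against control) and 10 (any difference), and on log2(FPKM + 0.1) 57 for mesalazine against control. With only the 4 libraries compared they were 21 (Kuiyangling against DSS model), 19 (Kuiyangling against control) and 315 (mesalazine against control). Total counts gave 9 (Kuiyangling against control), 22 (mesalazine against control) and 12 (any difference). With libraries left out, including control replicate 2 and mesalazine replicate 1 together, counts ran from 1 to 194 (DSS model against control), 0 to 28 (Kuiyangling against DSS model), 0 to 81 (mesalazine against DSS model), 1 to 171 (Kuiyangling against control), 1 to 2717 (mesalazine against control) and 1 to 977 (any difference).

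With libraries left out, the median log2 change of the 10 genes ran from -1.47 to 0.36 (DSS model against control), -0.91 to 0.77 (Kuiyangling against control) and -0.75 to 1.13 (mesalazine against control). For the DSS model against controls single genes ran from -1.56 to 0.013 (Cd3d), -1.21 to 0.79 (Cd3g), -0.77 to 0.90 (Cd4), -1.40 to 0.44 (Cd8a), -0.018 to 0.37 (Klrd1), -1.67 to 0.46 (Gzma), -1.97 to 1.20 (Gzmb), -2.14 to 0.12 (Nkg7) and -1.73 to 0.29 (Itgae). Klrd1 was -0.0037 there with total counts, which also moved the median of all genes to -0.20, -0.21 after length correction and -0.21 with block and length correction. For Kuiyangling against the DSS model the ranges were -0.13 to 0.85 (Cd3g), -0.063 to 0.26 (Cd4), -0.26 to 0.53 (Cd8a) and -0.41 to 0.56 (Nkg7), with Nkg7 at -0.0011 with RLE scaling and -8e-04 in DESeq2. For mesalazine against the DSS model they were -0.32 to 1.24 (Cd3e) and -0.81 to 0.23 (Gzmb). The genes higher with Kuiyangling than in the DSS model without overlap numbered 5 with total counts, 7 after length correction, 5 in FPKM and 3 to 9 with libraries left out, beside 32.1%, 18.2%, 32.1% and 21.9% to 39.1% of all genes. With 12 to 432 counts per gene, depth limits the rarest genes.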

Other observations

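Markers of other cells that mucosa can hold gave these values, with no explanation offered. The B cell list had 9 genes tested, all with a log2 change below 0 in the DSS model against controls at a median of -2.61. None was called by edgeR's test, against 0.247% of all genes, and 5 had an unadjusted p under 0.05, against 14.8%. The MHC class II list had 9 tested, all below 0 at a median of -1.79. In both lists control replicate 2 held the highest sum, and without it 8 of the 9 genes of each list were above 0, at medians of 0.59 for B cells and 1.24 for MHC class II. Without control replicate 1, 4 genes of each list were called lower. The neutrophil list had 4 of 10 tested genes called higher in the DSS model than in controls, against 0.247% of all genes called, or 1 without DSS model replicate 2 and 0 without control replicate 2, among them S100a8, a calcium-binding alarm protein, at a log2 change of 8.64 with an adjusted p of 0.00611.

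Plasma cell markers summed to 651 and 577 CPM with Kuiyangling, 657 and 553 CPM with mesalazine, 699 and 760 CPM in the DSS model and 529.8 and 582 CPM in controls. None of their 6 tested genes was called. Markers of lymphoid follicles summed to 238 and 228 CPM with Kuiyangling, 252 and 226 CPM with mesalazine, 338 and 248 CPM in the DSS model and 233 and 286 CPM in controls. Macrophage markers ran from 108 CPM in mesalazine replicate 2 to 201 CPM in mesalazine replicate 1, dendritic cell markers from 102 CPM in control replicate 1 to 244 CPM in DSS model replicate 1, and mast cell markers from 29.1 CPM in Kuiyangling replicate 2 to 76.9 CPM in control replicate 2. None of the 7 follicle, 14 macrophage, 6 dendritic cell and 3 mast cell genes tested was called in these comparisons.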
